A study of Mus musculus with 4 samples.

Results

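Windows around the 4 mouse Hox clusters, HoxA to HoxD, held 16 of the 15109 CTCF peaks called in hippocampus. CTCF, a DNA-binding zinc finger protein, helps to set the ends of chromatin loops. The peaks were taken from 4 fixed windows on the mm9 build, chr6:52050000-52280000 for HoxA, chr11:96000000-96280000 for HoxB, chr15:102700000-102920000 for HoxC and chr2:74430000-74670000 for HoxD, and a peak counted when it overlapped a window by at least 1 bp. The windows were set by position, not by any measured value, although with earlier results of these data known. Together they stand for 38 listed genes, 10 each in HoxA and HoxB and 9 each in HoxC and HoxD. Tissue was hippocampus of C57/Bl mice, without any treatment or mutation named in the labels. The labels name 2 libraries precipitated with an antibody against CTCF and 2 input libraries of the same tissue, while the design text counts 1 input. The single peak list combines these libraries, so the values carry no error between replicates, the read depth behind a peak is unknown, and intervals cover counting error only. The intervals also take peaks as independent of each other, and are too narrow where peaks occur in groups.

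Hox genes encode homeodomain transcription factors that give cells their identity along the head-to-tail axis of the embryo. Their order along each cluster follows the order in which they are used along that axis, and paralogues with the same number in different clusters descend from 1 ancestral gene. In embryonic cells, CTCF-bound sites inside Hox clusters are known for lying at borders between active chromatin and chromatin silenced by Polycomb proteins. The hippocampus belongs to the forebrain, which lies ahead of the regions where Hox genes are normally used. RefSeq's mouse genes on GRCm38.p6 list Hoxa2, a patterning gene of the hindbrain and branchial arches, as the listed HoxA gene with the lowest coordinate and Hoxa13, a limb and urogenital gene, as the highest. The other clusters run the opposite way, from Hoxb13 to Hoxb1, Hoxc13 to Hoxc4 and Hoxd13 to Hoxd1. No mm9 gene annotation was used here, so sides of a window are named by these genes and no peak is assigned to a gene. For the same reason, peaks of a cluster are the peaks of its window, and whether they lie among its genes was not determined.

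RefSeq promoter sequences, from 250 bases before to 50 after a transcription start, were at hand for 22 of the 38 genes. They were searched for a loose form of part of the CTCF binding motif, in which the letter N can be any base. They show which listed genes carry such letters close to the start, on the GRCm38.p6 build, and cannot be laid against the mm9 peaks. The motif letters were CAGGNGGC, or GCCNCCTG on the other strand, with overlapping matches counted. Of the 24 promoters of these genes, 4 (16.7%) held a match, beside 9.71% of all 32851 promoters of the same length. The difference between these shares rests on 4 promoters and was not tested. The Hox promoters had a mean GC content of 57.5% and all promoters 53.8%. The longer CTCF core consensus, which allows only G or T at that N, was in none of the 24 and in 0.557% of all. The 4 genes with a match were Hoxa10, needed in the uterus, the limb genes Hoxa13 and Hoxd13, and Hoxd9, which acts in the limb and lower spine. At the N, read on the strand of CAGGNGGC, Hoxa10 and Hoxa13 had C and Hoxd9 had A, letters that the longer consensus excludes. Hoxd13 had A in its match nearer the start and G, an allowed letter, in the farther one.

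The stretches around these matches are given 5′ to 3′ on the strand of the gene, with the matching letters in capitals. The Hoxa10 stretch is chr6:52240825-52240879, minus strand, with its match 22 to 29 bases into the transcript. The Hoxa13 stretch is chr6:52260853-52260952, minus strand, with its match 26 to 19 bases before the start. The Hoxd9 stretch is chr2:74697686-74697785, plus strand, with its match 31 to 24 bases before the start. The Hoxd13 stretch is chr2:74668010-74668210, plus strand, and holds 2 matches, at 169 to 162 and at 68 to 61 bases before the start.
Hoxa10: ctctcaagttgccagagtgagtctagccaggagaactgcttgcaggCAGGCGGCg
Hoxa13: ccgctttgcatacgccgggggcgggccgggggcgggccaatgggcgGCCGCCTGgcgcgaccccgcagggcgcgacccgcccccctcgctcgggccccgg
Hoxd9: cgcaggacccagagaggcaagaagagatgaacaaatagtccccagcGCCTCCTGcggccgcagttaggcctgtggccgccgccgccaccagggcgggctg
Hoxd13: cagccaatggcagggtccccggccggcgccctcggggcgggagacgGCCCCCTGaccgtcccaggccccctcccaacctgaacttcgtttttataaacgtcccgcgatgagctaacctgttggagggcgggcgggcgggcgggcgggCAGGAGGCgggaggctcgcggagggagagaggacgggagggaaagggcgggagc

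The clusters differed in how many peaks they held and in how strong these were by the authors' peak score. HoxB held 8 peaks, HoxA 4, and HoxC and HoxD 2 each. The strongest of the 16 lay in HoxD, with a score of 1048, and the weakest in HoxB, with a score of 38. HoxC held no strong peak, and its scores of 102 and 93 were close to the list's median of 93. At or above that median score each cluster held 2 peaks, so the counts differed through weaker peaks alone, 6 in HoxB, 2 in HoxA and 0 in HoxC and HoxD.

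**Figure D1:**
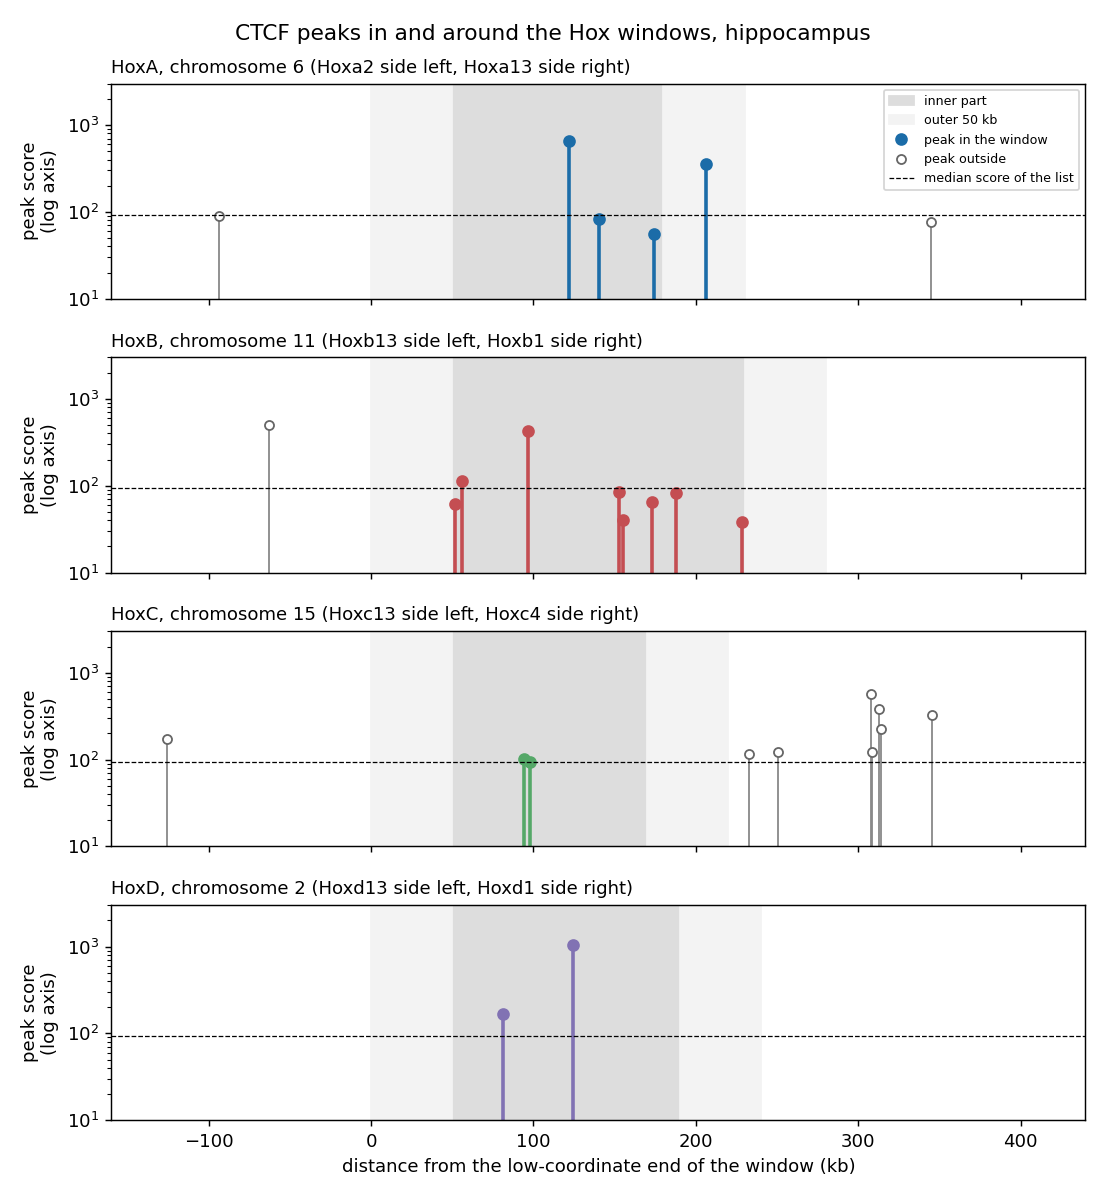
Each panel plots the score of every CTCF peak (log axis) against its distance in kb from the low-coordinate end of a Hox window, with filled points for peaks in the window, open points for peaks outside, and the dashed line at the list's median score of 93. The dark band is the inner part and the light bands are the outer 50 kb. Of the 16 peaks, 15 stand in the dark bands, and the exception is the rightmost HoxA peak.

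In HoxA all 4 peaks lay past the midpoint of the window, on its Hoxa13 side, from 121.8 to 206.1 kb into a window of 230 kb. The first, at chr6:52171423-52172167, was the strongest, scoring 655 over 745 bp, and 3.86% of all peaks scored as high or higher. A weaker peak at chr6:52190343-52190697, with a score of 83, lay 18.7 kb farther on. The third, at chr6:52223949-52224399, had the lowest score of the cluster, 55. The last, at chr6:52255845-52256380, scored 353 and was 536 bp wide. The 2 strong peaks thus stood at the ends of the row and the 2 weak ones between them, and no peak lay in the 121.4 kb between the low end of the window, on the Hoxa2 side, and the first of them.

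In HoxB the 8 peaks were spread over 176.7 kb of a window of 280 kb. The strongest, at chr11:96096136-96096901, scored 431, was 766 bp wide and stood 40.8 kb from its nearest neighbour. Next came the peak at chr11:96055322-96056065, with a score of 112, which had a weaker partner 4.10 kb away at chr11:96051336-96051856, with a score of 62. These 2 were nearest to the end on the side of Hoxb13, a gene of the tail and prostate. Another close pair, 2.39 kb apart, lay at chr11:96152276-96152686 and chr11:96154650-96155084, with scores of 85 and 40. The peaks at chr11:96187820-96188173 and chr11:96172989-96173338 scored 83 and 65. The last, at chr11:96228122-96228483, on the side of the hindbrain gene Hoxb1, had the lowest score of all 16, 38, which 95.5% of the list reached or passed. The widest gap between adjacent peaks, 55.96 kb, followed the strongest peak.

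HoxC and HoxD each held a single pair of peaks, close together in HoxC and far apart in HoxD. The HoxC peaks, at chr15:102794008-102794476 and chr15:102797554-102797942, were 3.51 kb apart and 469 and 389 bp wide. From the second of them to the next peak, beyond the window on the side of Hoxc4, no peak was listed for 135 kb. The HoxD peaks were 42.9 kb apart. The first, at chr2:74510989-74511350, on the side of the limb gene Hoxd13, scored 169 and was 362 bp wide. The second, at chr2:74553745-74554393, scored 1048 and was 649 bp wide, and 1.56% of all peaks scored as high or higher.

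By density, HoxB had 2.86 peaks per 100 kb (95% exact Poisson interval 1.23 to 5.63), HoxA 1.74 (0.474 to 4.45), HoxC 0.909 (0.110 to 3.28) and HoxD 0.833 (0.101 to 3.01). The ratio of the densest to the sparsest, HoxB to HoxD, was 3.43, with an exact 95% interval of 0.684 to 33.1. The intervals of all 6 pairwise ratios included 1, so at counts this small no pair of neighbours in this order could be told apart. The 4 windows together had 1.65 peaks per 100 kb (0.943 to 2.68), against 0.759 over the spans of chromosomes 2, 6, 11 and 15. The spans do not give the density close to the clusters, which varied. The 1 Mb on each side held 0.550 peaks per 100 kb for HoxA, 2.10 for HoxB and 0.200 for HoxD, each below its window. HoxC went the other way, with 25 peaks in the 1 Mb on its Hoxc13 side. Windows and surroundings were not tested against each other, so no general enrichment over nearby sequence is claimed.

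Against windows of equal size on the same chromosome, HoxA stood highest. Of 630 windows of 230 kb on chromosome 6, 63 (10%) held at least the 4 peaks of HoxA, and 60.3% held none. On chromosome 11, the most peak-rich of the 4, 16.2% of 420 windows of 280 kb held at least 8 peaks, and the median window held 2. Of 452 windows of 220 kb on chromosome 15, 26.5% held at least 2, as did 30.3% of 742 windows of 240 kb on chromosome 2. In none of the 4 was the Hox window the fullest, the maxima being 13, 29, 14 and 18 peaks on chromosomes 6, 11, 15 and 2. These shares describe the list and are not tests. The place of HoxB rested on weak peaks. Counting scores of 93 or more, HoxB held 2 peaks and 39.3% of the windows at least as many. HoxD moved the other way under a score filter, with 10% of windows reaching its 2 peaks among scores of 163 or more. The inner 180 kb of HoxB, with all 8 peaks, was matched by 5.95% of 655 windows of that size, below the 6.71% for the inner part of HoxA. That comparison was chosen after seeing the data. Trimming HoxB without losing a peak lowers its share by construction, so the order of HoxA and HoxB is not settled by it.

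**Figure D2:**
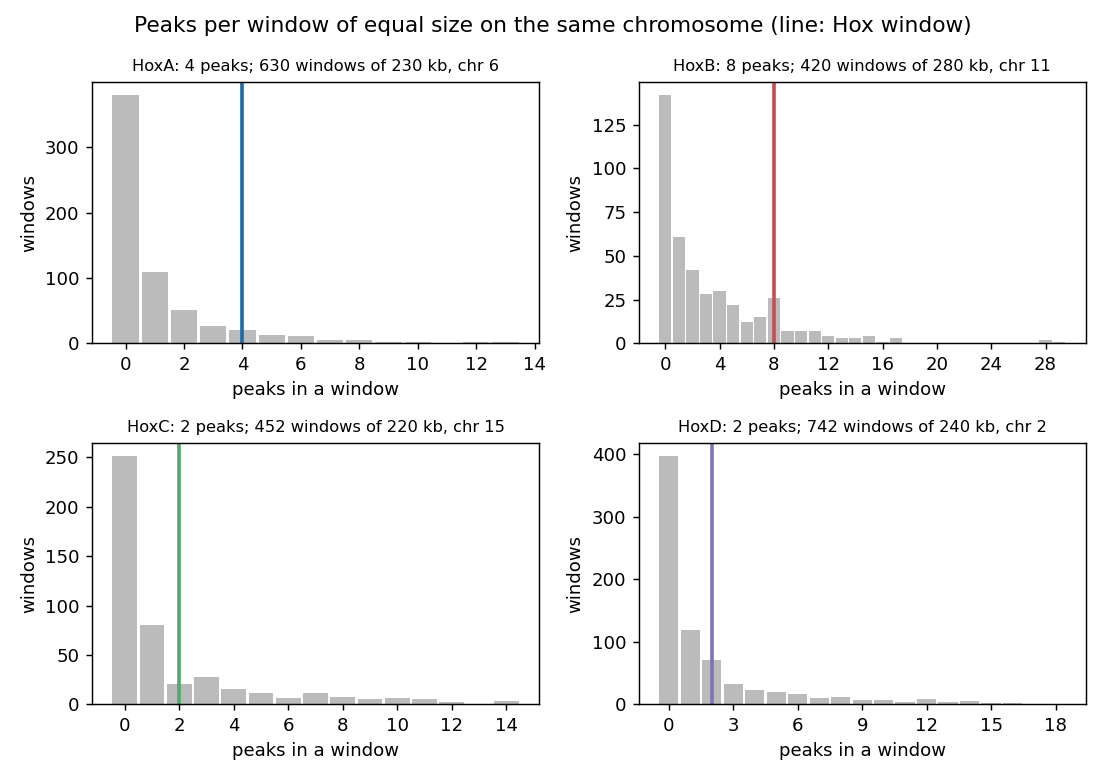
Bars give the number of windows (vertical axis) that held each number of peaks (horizontal axis), for windows of the same size as HoxA, HoxB, HoxC or HoxD on the same chromosome, and the coloured line is the Hox window. At least as many peaks were held by 10% of the windows for HoxA at 4 and by 16.2% for HoxB at 8. For HoxC and HoxD, both at 2, the shares were 26.5% and 30.3%.

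With the cut at 50 kb, peaks were concentrated in the inner parts of the windows. Leaving off 50 kb at each end, the inner parts held 15 peaks in 570 kb, or 2.63 per 100 kb (1.47 to 4.34), and the outer parts held 1 in 400 kb, or 0.250 per 100 kb (0.00633 to 1.39). The ratio was 10.5, with an exact 95% interval of 1.62 to 443. That interval takes peaks as independent, whereas 6 of the 16 had another peak within 10 kb, so it may be too narrow. All peaks of HoxB, HoxC and HoxD were inner, and the outer peak was the one of score 353 on the Hoxa13 side of HoxA. Several inner peaks lay only just past the cut. In HoxB they lay 51.6 and 55.7 kb from the low end and 51.7 kb from the high end. In HoxA the third peak lay 55.8 kb from the high end. A slightly deeper cut would add these peaks to the outer parts, which held only 1, and so lower the ratio sharply. No other depth was tried, so the ratio of 10.5 and its interval hold for the 50 kb cut alone. Without HoxB, which gave 8 of the 15, the ratio was 5.38 and its interval, 0.692 to 243, included 1. Among scores of 93 or more the ratio was 4.91 (0.631 to 221), and for the whole windows against the 50 kb just beyond them it was 3.30 (0.776 to 29.6), from 16 peaks against 2. The peaks just inside and just outside a boundary were the HoxA peak of score 353, 23.6 kb inside, and a peak of score 116 at chr15:102932617-102933209, 12.6 kb beyond the Hoxc4 side of HoxC. Next to it, 30.1 kb beyond the same boundary, stood a peak of score 121.

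The Hox peaks lay within the list's range of score and width. Their median score was 89 (95% interval of the median 62 to 353), against 93 for all peaks, with a range of 38 to 1048. The score reached the list's upper quartile of 163 in 5 of 16 (31.3%, exact binomial 95% interval 11.0 to 58.7%), beside 25.4% of all peaks. These were both HoxD peaks, 2 in HoxA and 1 in HoxB. The median width was 443 bp (362 to 649), against 473 bp for all peaks. None of the 16 was wider than 1 kb, which by the exact binomial interval allows a share of up to 20.6%, beside 5.75% of the list. Among the 16 as in the whole list, wider peaks scored higher, with Spearman's rho of 0.60 and 0.59. The points share 1 list and 1 peak caller, and the relation is a description.

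**Figure D3:**
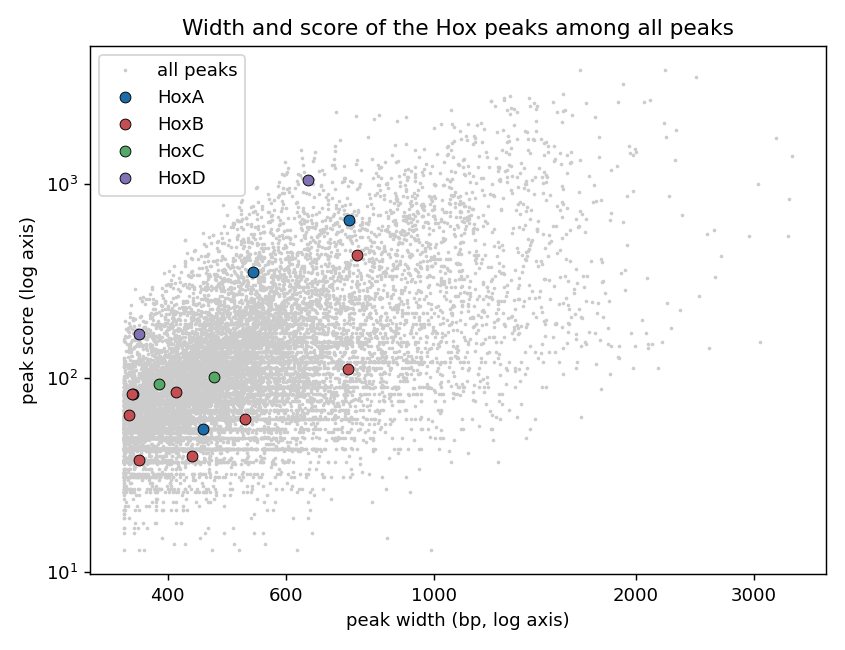
Score is plotted against width in bp (both log axes) for all 15109 peaks in grey and for the 16 Hox peaks in colour by cluster. The Hox peaks lie inside the grey cloud, from the HoxB peak of score 38 to the HoxD peak of score 1048, and none is wider than 766 bp.

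Adjacent Hox peaks inside a window were 25.3 kb apart at the median, over 12 spacings from 2.39 to 55.96 kb (95% interval of the median 4.10 to 40.8), against 27.6 kb on the 4 chromosomes. These spacings cannot exceed a window, whereas those of the chromosomes have no such limit. With the 8 stretches of 115 to 753 kb to the nearest peaks beyond the windows included, the median of 20 spacings was 41.9 kb. From each Hox peak the nearest peak was 16.8 kb away at the median, against 13.7 kb for all peaks and 11.7 kb for the other peaks of the 4 chromosomes. Inside the windows, the median of HoxA was 31.9 kb and that of HoxB 18.3 kb, beside 43.9 and 22.9 kb on chromosomes 6 and 11. A neighbour within 10 kb was found for 6 of the 16 peaks (37.5%, interval 15.2 to 64.6%), beside 42.9% of all peaks. These 6 were the 2 close pairs of HoxB and the pair of HoxC, and the same 37.5% had a neighbour within 5 kb, beside 28.4% of all peaks, so the order of the shares depended on the distance. HoxA and HoxD had no such pair, although all 16 peaks had another within 50 kb, as did 77.1% of the list.

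The surroundings of the clusters were unlike each other. HoxD stood in a region with few peaks. The 1 Mb on each side of its window held 2 peaks, or 0.200 per 100 kb, against 0.730 on chromosome 2. The stretch from the first HoxD peak to the nearest peak on the side of Hoxd13 measured 753 kb, and 3.69% of the spacings on chromosome 2 were longer. On the side of Hoxd1 the stretch was 422 kb, with 6.45% longer. HoxA had 6 peaks in the 1 Mb on the Hoxa2 side and 5 on the Hoxa13 side, or 0.550 per 100 kb, against 0.469 on chromosome 6. The stretches to the nearest of them were 216 and 139 kb, and 19.7% and 26.3% of the spacings on that chromosome were longer. In contrast, 22 and 20 peaks lay within 1 Mb of HoxB on its Hoxb13 and Hoxb1 sides. That was 2.10 per 100 kb in all, against 1.19 on chromosome 11. Even so, the nearest peak beyond Hoxb1 was 325 kb from the last HoxB peak, and 4.56% of the spacings on chromosome 11 were longer. HoxC had 25 peaks in the 1 Mb on its Hoxc13 side and 12 in the 245 kb to the last peak of chromosome 15 on the other.

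**Figure D4:**
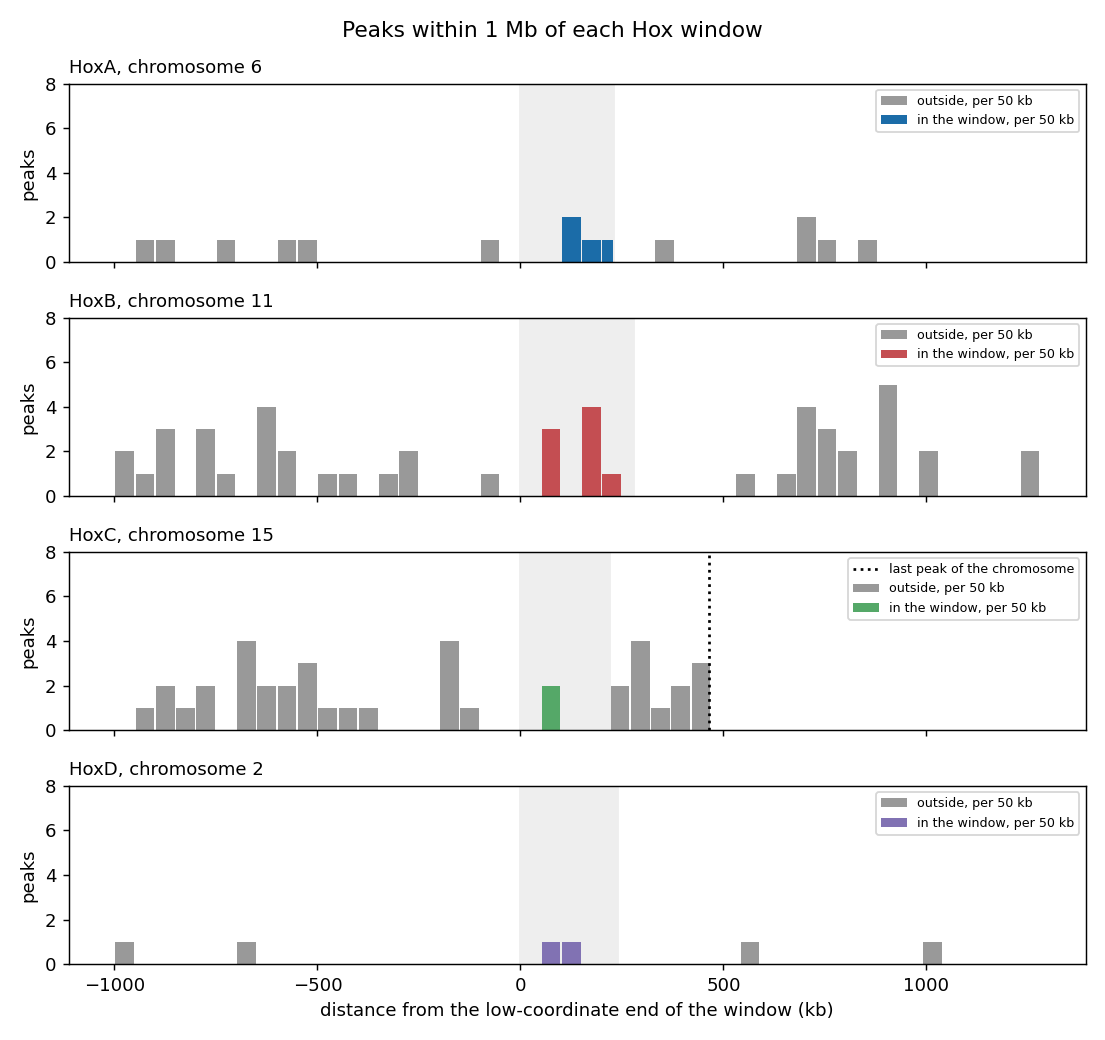
Bars count peaks per 50 kb (vertical axis) against the distance in kb from the low-coordinate end of each Hox window, with the window shaded and its own peaks in colour, out to 1 Mb on each side. The HoxD panel has 2 grey bars on each side, while HoxB and HoxC have many peaks within 1 Mb. The 250 kb next to HoxB, however, held 1 peak on the Hoxb13 side and 0 on the Hoxb1 side. The dotted line marks the last listed peak of chromosome 15, which is not the end of the chromosome's sequence.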

How the data were processed

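CTCF ChIP and input libraries of mouse hippocampus were represented by 1 combined peak list. The submitters' processing notes name MACS2 (version 2.0.10.20131216), cutadapt and the build mm9. Which aligner and calling threshold were used, and how duplicates were treated, is not given in the sources used here. The score is a whole number per peak as deposited by the authors, with its scaling not stated, and it served only for ranks and filters within the list. Starts and ends, other values of the file, are deposited zero-based positions and were counted from 1.

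Peaks were placed by overlap with the windows of at least 1 bp and as inner or outer by their midpoints. Equal windows were laid end to end from the first peak of a chromosome, leaving out those that touched the Hox window. Density ratios have exact 95% intervals conditional on the total, and medians have intervals from order statistics. No test was run, since the list has no replicates. Peaks cannot stand in for mice. The code was tested on simulated data with planted counts. By rule, every peak of a cluster with 10 or fewer was named. The named genes are the listed genes at the ends of each cluster and those with a promoter match. The clusters, windows and lists were chosen with earlier results of these data known. Python 3.11.15, numpy 2.4.6, pandas 2.3.3 and scipy 1.17.1 were used. The alternatives covered score filters, joining of near peaks, placement, the outer parts, the windows compared and neighbour distances. Sequences under the mm9 peaks were not analysed here.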

Additional observations from a re-analysis of the deposited data

How the results depend on the processing

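Of 57 alternative values, 33 stayed within the range set for their result (1.5 times for a count, the 95% interval of the main value otherwise) and 24 moved. Joining peaks under 1 kb apart and placing peaks by midpoint moved none. Neither could change the Hox counts, as the closest Hox peaks were 2.39 kb apart and none lay nearer than 23.6 kb to a window end. Part of the 33 was therefore fixed beforehand and says nothing about stability. With scores of 93 or more, the windows held 8 peaks in all, 2 of them in HoxA and 2 in HoxB, and with scores of 163 or more 5 in all, 2 in HoxA, 1 in HoxB and 0 in HoxC. The share of equal windows with at least as many peaks became 39.3% for HoxB, 17.9% for HoxC and 18.9% for HoxD at 93 or more, and 6.45% for HoxA, 41.7% for HoxB and 10% for HoxD at 163 or more, where HoxC had no peak to compare. Among windows with at least 1 peak it was 25.2%, 24.5%, 60.0% and 65.4% for HoxA, HoxB, HoxC and HoxD, as fewer windows were compared. For the inner parts against windows of their own size it was 6.71%, 5.95%, 18.1% and 21.5%. This alternative, leaving out HoxB, and counting peaks that touch the inner part as inner were chosen after seeing the data. The density ratio of inner to outer parts was above 1 in its 6 alternatives, none of which changed the depth of 50 kb. It ran from 2.81 (0.278 to 138) with scores of 163 or more to 10.5, but the interval included 1 in 4 of the alternatives. The other 2, joining near peaks and counting peaks that touch the inner part as inner, could not change the main value. They repeated its 15 inner peaks and 1 outer peak, so every alternative able to move the ratio had an interval that included 1. The median spacing was 41.9 kb over 4 spacings at 93 or more, and also 41.9 kb over 20 with the stretches beyond the windows, added after seeing the data, and the share with a neighbour was 100% within 50 kb. No paired analysis was possible because all 4 libraries went into a single list. For the same reason no replicate was left out. Read depth is unknown, so a stretch with no peak is not evidence of absent binding.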

Other observations

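The side of HoxC toward Hoxc4 carried more peaks just beyond the window than any other boundary of the 4 windows, a pattern chosen after the values were seen. Within 150 kb of that boundary lay 7 peaks, with scores from 116 to 568, against 2 peaks, of scores 102 and 93, in the whole window of 220 kb. Of the 7, 4 scored 163 or more. The strongest, at chr15:103007176-103008065, scored 568 and lay 0.751 kb from a peak of score 123. A second close pair, at chr15:103012481-103013137 and chr15:103013541-103014662, was 1.29 kb apart and scored 378 and 223. The other boundaries had 1 peak within 150 kb, on either side of HoxA and on the Hoxb13 and Hoxc13 sides, or none, on the Hoxb1 side and on either side of HoxD.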
